A study of Mus musculus with 2 samples.

Results

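The genes described here are 33 listed interferon-stimulated genes of the antiviral type I interferon response, of which 32 were among the 17775 genes of the count matrix. Mx2 was not analysed here. They were taken from a list of gene names by a rule that uses no measured value. The list itself was chosen with earlier results of these data known. Each gene was followed across cell types and across 2 single-cell libraries. The tumours grew from MC38, a colon carcinoma line of the mouse, injected into the back of C57BL/6 mice. Starting on day 7, gavage delivered difluoromethylornithine (DFMO), an irreversible inhibitor of the polyamine enzyme ornithine decarboxylase, or water over 14 days. The tumours were then digested, immune cells were enriched on Ficoll, and cells of 4 mice per group were pooled into 1 droplet library read from the 5' end of transcripts. The series text gives gavage as once a day and the sample labels as 2 times a day, and no age is given. With 1 library a group there is no replicate error: intervals below cover counting error only, no p-value is given, and treatment, pool and library cannot be told apart.

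Type I interferons (interferon beta and the interferon alphas) bind the receptor Ifnar1/Ifnar2, whose kinases Jak1 and Tyk2 start a signal to the nucleus. There, Irf9 and Stat2 act at a DNA element of repeated GAAA words, the interferon-stimulated response element, in front of antiviral genes. Interferon gamma acts through another receptor and a different element (TTCNNNGAA), and many interferon-stimulated genes respond to both. In tumours, macrophages and dendritic cells are a known source of type I interferon, and tumour cells and lymphocytes also respond to it.

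RefSeq promoter windows (GRCm38.p6, 250 bases before to 50 after a start) matched 24 of the 33 genes in 30 windows. Mx1, Mx2, Usp18, Oas2, Dhx58, Ifi27l2a, Zbp1, Rtp4 and Parp14 had no entry. A motif of GAAA, any 2 bases and GAAA, read on both strands and allowed to overlap, occurred in 14 of the 24 genes (58.3%) and in 1079 of all 27025 genes with a window (3.99%). The gamma-type word TTCNNNGAA, searched separately and reading alike on both strands, occurred in 5 of the 24 (20.8%) and in 9.55% of all genes. The bases upstream of the start are shown for 5 of the genes with a match. Cmpk2, Ifi44, Ifit2, Irf7 and Isg20, whose values the results also turn on, held no match and are not shown. Bases run 5' to 3' along the gene, with each match to the GAAA motif or its complement in capitals. Isg15 (chr4:156200819-156201068, minus strand) and Bst2 (chr8:71537473-71537722, minus) hold overlapping repeats, and Rsad2 (chr12:26456453-26456702, minus) holds 1 match. Ifit3 (chr19:34583279-34583528, plus) and Ifit3b (chr19:34607707-34607956, plus) hold 2 matches each.
Isg15: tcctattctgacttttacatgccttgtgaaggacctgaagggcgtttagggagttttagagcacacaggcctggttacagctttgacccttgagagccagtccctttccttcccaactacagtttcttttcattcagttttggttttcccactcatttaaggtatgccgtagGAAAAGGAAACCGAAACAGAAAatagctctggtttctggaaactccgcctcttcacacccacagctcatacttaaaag
Bst2: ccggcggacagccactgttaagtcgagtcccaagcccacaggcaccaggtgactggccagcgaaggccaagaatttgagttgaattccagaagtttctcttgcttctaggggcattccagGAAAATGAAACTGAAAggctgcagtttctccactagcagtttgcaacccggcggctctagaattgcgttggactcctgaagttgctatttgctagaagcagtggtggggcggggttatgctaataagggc
Rsad2: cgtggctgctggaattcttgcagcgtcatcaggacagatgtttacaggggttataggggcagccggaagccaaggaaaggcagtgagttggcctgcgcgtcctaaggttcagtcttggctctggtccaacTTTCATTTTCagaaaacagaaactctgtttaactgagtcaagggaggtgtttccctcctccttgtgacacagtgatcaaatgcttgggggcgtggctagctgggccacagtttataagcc
Ifit3: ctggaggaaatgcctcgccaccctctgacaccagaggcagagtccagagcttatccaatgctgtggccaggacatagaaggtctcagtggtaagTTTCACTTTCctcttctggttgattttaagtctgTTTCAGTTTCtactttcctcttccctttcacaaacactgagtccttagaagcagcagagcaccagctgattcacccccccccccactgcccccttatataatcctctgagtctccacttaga
Ifit3b: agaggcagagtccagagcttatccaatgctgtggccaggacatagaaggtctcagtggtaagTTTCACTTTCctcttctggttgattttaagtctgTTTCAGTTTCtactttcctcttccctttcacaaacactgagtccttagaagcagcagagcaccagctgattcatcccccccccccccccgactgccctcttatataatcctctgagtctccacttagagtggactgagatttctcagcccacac
The matches begin 78 bases before the start in Isg15, 130 in Bst2, 120 in Rsad2, 156 in Ifit3 and 188 in Ifit3b. Medians of genes with and without a match differed by class in size and direction. In regulatory T cell-like cells the median log2 ratio (DFMO to water) was -0.86 for 14 genes with a match and -0.82 for 9 without. In CD8 T cell-like cells it was -0.53 for 14 and -0.59 for 10, and in NK cell-like cells -0.61 for 13 and -0.45 for 10.

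The deposited cells numbered 4472 (DFMO) and 6248 (water), with a median of 2208 and 6335 UMIs per kept cell; a UMI marks 1 captured RNA molecule. Clustering was done without the genes described here and without other interferon-induced lists, and clusters were named from marker genes. The libraries differed in make-up: B cell-like cells were 33.7% of the DFMO cells and 0.927% of the water cells. Ratios between libraries were therefore taken within the 6 classes that held 100 or more cells of each. These were CD8 T cell-like (437 DFMO and 865 water cells), NK cell-like (204 and 360), regulatory T cell-like (195 and 206), monocyte and macrophage-like (200 and 1290), fibroblast-like (118 and 941) and Ptprc-low tumour-like cells (572 and 1974). The last 2 go against the label of immune cells: Ptprc, which encodes CD45, was at 2.56 CPM in the fibroblast-like cluster, against 289 in the monocyte cluster 5. Y-linked genes were at 1.17 CPM in the fibroblast-like cluster, against 81.7 in cluster 5 and between 0.551 and 1.84 in the Ptprc-low clusters. That level lay with the Ptprc-low clusters, and whether the fibroblast-like cells are host cells was not tested. Ptprc-low clusters 2 and 3 met 0 of 6 tumour epithelium markers, so the name tumour-like does not rest on those markers. The label fibroblast-like is kept only for its leading genes (Postn, Col1a1, Bgn, Col3a1), with 5 of 7 fibroblast markers met, and says nothing of origin. CPM is a gene's UMIs per 1e+06 UMIs of the class, and 37 barcodes occurred in both libraries.

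By summed level the regulatory T cell-like and the monocyte and macrophage-like cells were highest of the 6 classes. The 32 genes summed to 14175 CPM in water monocyte and macrophage-like cells (95% interval 14079 to 14271) and to 20180 in water regulatory T cell-like cells (19854 to 20509). They summed to 3755 CPM in water NK cell-like cells. The small hydrophobic protein gene Ifi27l2a made up much of the regulatory T cell sum, and without it that class stood at 8031 CPM with water and 4282 with DFMO. In the same order, the sums without it were 9931 and 7909 CPM in the monocyte and macrophage-like class, 7923 and 7410 in fibroblast-like and 5566 and 6347 in Ptprc-low cells. Gene by gene, the monocyte and macrophage-like class was highest for 17 of 32 genes in the DFMO library and 20 of 32 in the water library, 16 of them in both. Fibroblast-like cells were highest for 10 and 6 genes, and regulatory T cell-like cells for 4 and 5. NK cell-like cells were lowest for 19 genes with DFMO and 14 with water, and Ptprc-low cells for 5 and 15.

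**Figure D1:**
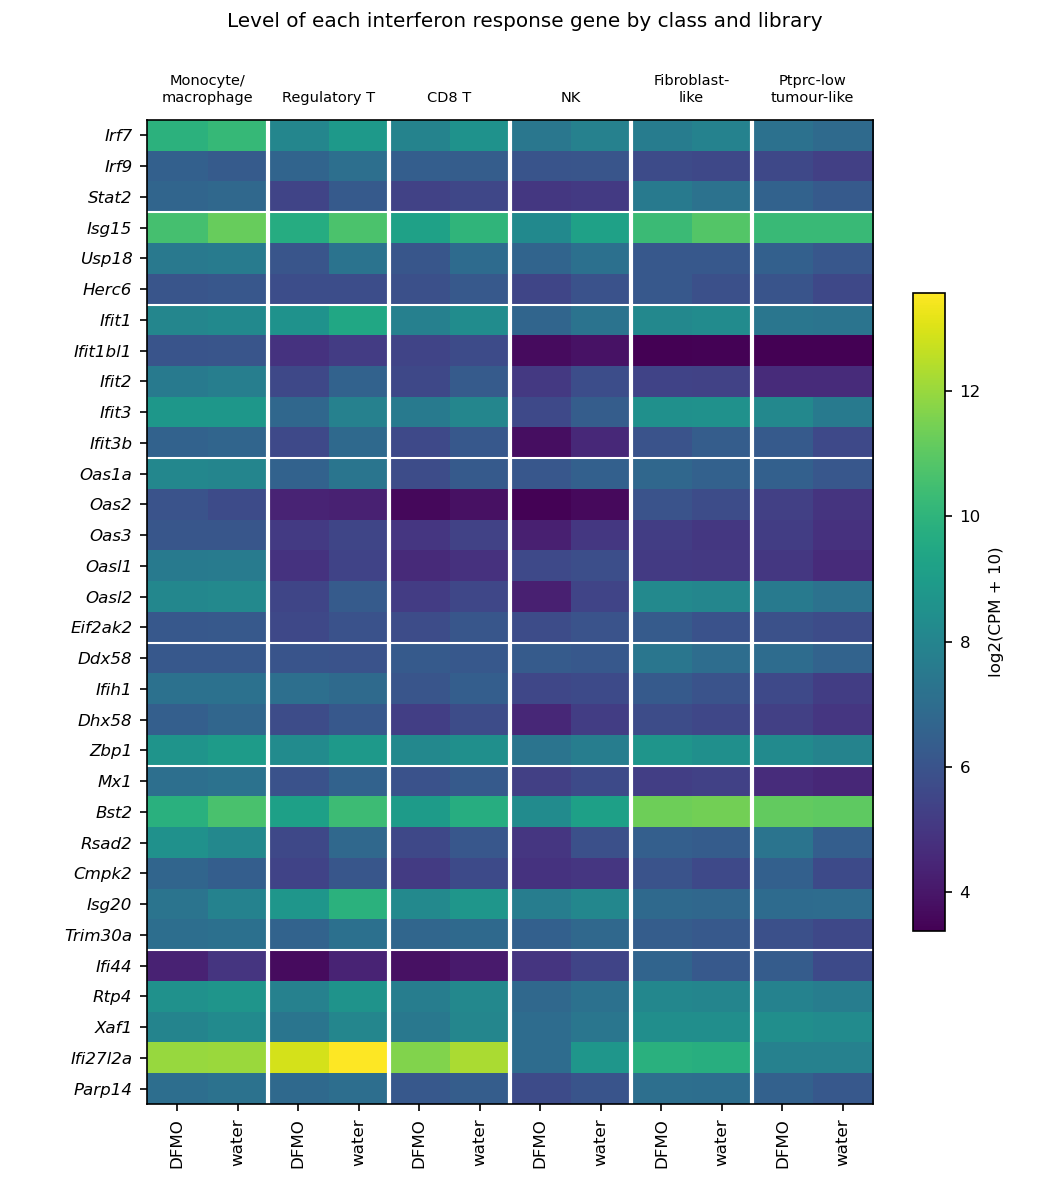
Level of each of the 32 genes (rows, grouped by role) in 6 classes and both libraries (columns), as log2(CPM + 10). Ifi27l2a is brightest in regulatory T cell-like cells, Bst2 in fibroblast-like and Ptprc-low cells, and NK cell-like cells are lowest for 19 rows with DFMO and 14 with water, against 5 and 15 for Ptprc-low cells.

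A few genes departed from that order. Ifi27l2a stood at 7704 CPM (DFMO) and 12148 CPM (water) in regulatory T cell-like cells, against 115 and 419 in NK cell-like cells. Bst2, the tetherin that holds budding virions at the membrane, was highest in fibroblast-like cells at 2520.1 and 2705 CPM and lowest in NK cell-like cells at 305 and 561. Ifi44 was at 91.6 and 63.8 CPM in fibroblast-like cells but at 4.35 and 7.13 in CD8 T cell-like cells. Isg20, an RNA exonuclease, had its highest level among regulatory T cell-like cells, at 418 and 930 CPM. Ifit1bl1, a relative of Ifit1, was at 55.9 and 57.0 CPM in the monocyte and macrophage-like class. It was at 0.526 and 0.681 CPM in fibroblast-like and 0.606 and 0.383 in Ptprc-low cells, on 1 to 12 UMIs.

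Between the libraries, the genes were lower with DFMO in the lymphocyte classes and slightly higher in Ptprc-low tumour-like cells. Summed over the 32 genes, regulatory T cell-like cells had 11986 CPM with DFMO and 20180 with water, a log2 ratio of -0.75. NK cell-like cells had 2293 and 3755 CPM (log2 -0.71), and CD8 T cell-like cells had 6711 and 10203 (log2 -0.60). The monocyte and macrophage-like class had 11967 and 14175 CPM (log2 -0.24), and the fibroblast-like class 8322 and 8776 (log2 -0.08). Ptprc-low cells had 6571 CPM with DFMO and 5789 with water (log2 0.18). When each cell was weighted alike, the sum in Ptprc-low cells was almost level between the libraries (log2 0.045). It was then -0.99 in regulatory T cell-like, -0.72 in NK cell-like and -0.63 in CD8 T cell-like cells.

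Counts and medians over single genes were lower with DFMO in the same 3 lymphocyte classes. Among genes with 30 or more UMIs, 28 of 30 were lower with DFMO in regulatory T cell-like cells (median log2 ratio -0.80). Of all 6001 genes measured there, 41.6% were lower. Past 1.5-fold lower were 20 of the 30, against 8.03% of all genes. At a finer clustering resolution (2.0) that count of 20 was 10, in a class of 77 DFMO cells, under the 100 set for ratios. In NK cell-like cells 29 of 30 were lower (median -0.47), against 45.7% of all genes, and 12 were past 1.5-fold lower, against 5.79%. That count was 20 at resolution 2.0, and 7 among the fewer genes with 100 or more UMIs. In CD8 T cell-like cells 29 of 31 were lower (median -0.53), against 44.1% of all genes. Past 1.5-fold lower were 12 (4 at resolution 0.5), against 3.68% of all genes. In the monocyte and macrophage-like class 26 of 32 were lower (median -0.12), against 46.9% of all genes. There, 4 were past 1.5-fold lower (7 at resolution 2.0, 8 with cells thinned and 2 without cluster 5), against 8.44% of all genes. In fibroblast-like cells 23 of 31 were higher (median 0.13), against 50.6% of all genes. None was past 1.5-fold in either direction, against 5.83% of all genes higher and 7.58% lower. In Ptprc-low cells 30 of 31 were higher (median 0.38), against 58.4% of all genes, and 5 were past 1.5-fold higher, against 4.76%. Over all kept cells, whose make-up differed, 24 of 32 were lower (median -0.20), against 45.5% of all genes, and 2 past 1.5-fold, against 10.1%. With each cell weighted alike that count was 27 (median -1.05), and with cells thinned to 1000 UMIs it was 26 (median -1.03). The share of all genes past 1.5-fold was not computed under any alternative setting, so those counts have no matching background. The median over all measured genes lay between 0.01 (fibroblast-like) and 0.10 (regulatory T cell-like) in the 6 classes.

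**Figure D2:**
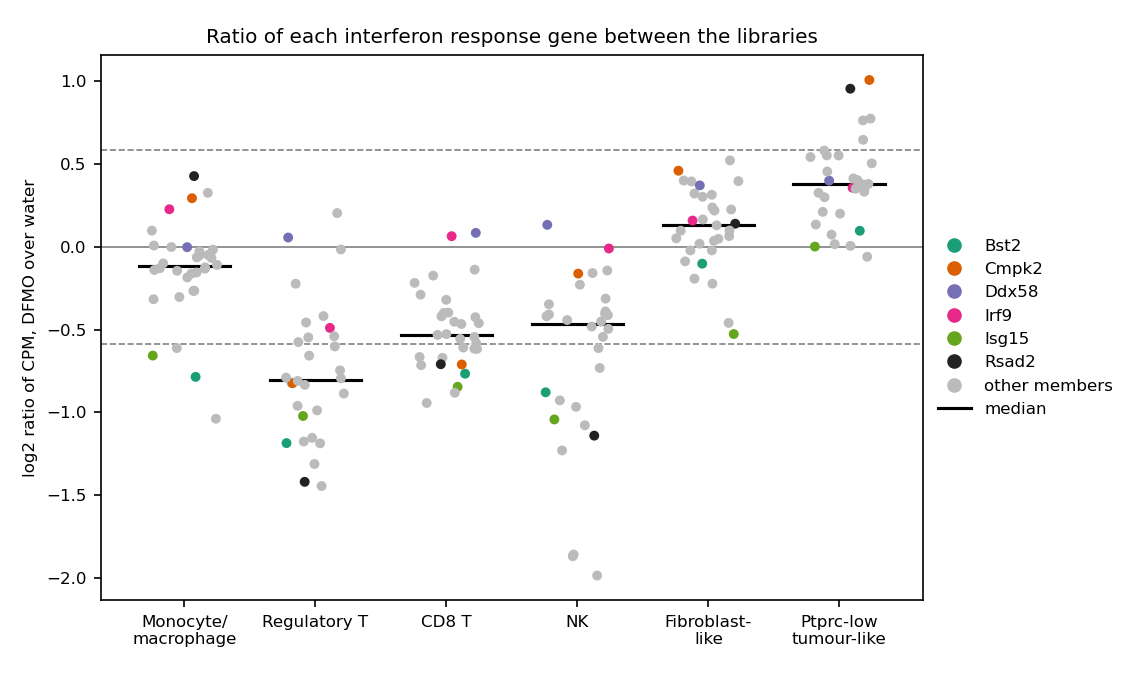
Log2 ratio of CPM, DFMO over water, of each gene with 30 or more UMIs in 6 classes; black lines are medians and dashed lines mark 1.5-fold. The medians run from -0.80 in regulatory T cell-like cells to 0.38 in Ptprc-low cells, while Irf9 and Ddx58 sit near 0 in CD8 and NK cell-like cells.

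In all 3 lymphocyte classes, 29 genes had 30 or more UMIs. Of these, 26 were lower with DFMO in all 3, against 849 of 5740 genes measured in all 3 (14.8%). Past 1.5-fold in all 3 were 6 genes, against 18 of the 5740 (0.314%): Isg15, Bst2, Ifit2, Ifit3b, Rsad2 and Ifi27l2a. In NK cell-like cells Ifit3b rested on 4 DFMO UMIs, and the Ifi27l2a ratio turned to 0.146 at resolution 2.0. Lower in all 3 and higher in Ptprc-low cells were 25 of 29, against 254 of 5521 genes (4.6%).

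The transcription factors of the response split. Irf7, which drives interferon alpha genes and is itself induced, stood at 257 CPM with DFMO and 455 with water in regulatory T cell-like cells, 233 and 369 in CD8 T cell-like cells, and 969 and 1166 in monocyte and macrophage-like cells. It was lower with DFMO in each (log2 -0.82, -0.67 and -0.27) and higher in Ptprc-low cells (136 and 110 CPM, log2 0.30). NK cell-like cells had 162 and 221 CPM of Irf7 (log2 -0.45) and fibroblast-like cells 194 and 226 (log2 -0.22). Irf9, which binds DNA at the response element, was at 76.5 and 73.2 CPM in CD8 T cell-like cells (log2 0.06, interval -0.23 to 0.35). It was at 55.6 and 56.0 CPM in NK cell-like cells (log2 -0.01, -0.48 to 0.45) and at 91.2 and 128 in regulatory T cell-like cells (log2 -0.49, -0.96 to -0.02). Stat2 was lower in regulatory T cell-like cells (34.04 and 67.5 CPM, log2 -0.99, -1.74 to -0.26), and its interval spanned 0 in CD8 T cell-like (log2 -0.17) and NK cell-like cells (22.6 and 24.96 CPM, log2 -0.14).

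The ubiquitin-like modifier genes Isg15, Usp18 and Herc6 had a median of -1.02 in regulatory T cell-like and -0.85 in CD8 T cell-like cells. In both classes that median is the ratio of Isg15 itself. In NK cell-like cells Usp18 had -0.50 and Herc6 -0.54. Isg15, which encodes the modifier, was at 813 CPM with DFMO and 1650.1 with water in regulatory T cell-like cells (log2 -1.02, -1.17 to -0.88). It was at 284 and 585 CPM in NK cell-like cells (log2 -1.04), 581 and 1044 in CD8 T cell-like cells (log2 -0.85) and 1490.4 and 2349.9 in monocyte and macrophage-like cells (log2 -0.66). Isg15 was also lower in fibroblast-like cells, at 1267 and 1826 CPM (log2 -0.53, -0.59 to -0.47), and was level in Ptprc-low cells at 1241 and 1240.3 CPM (log2 0.00, -0.03 to 0.03). Usp18, which removes Isg15 from proteins and dampens receptor signalling, was at 57.2 and 142 CPM in regulatory T cell-like cells (log2 -1.31) and 58.3 and 112 in CD8 T cell-like cells (log2 -0.94). Herc6, the ligase that attaches Isg15 in mice, was at 44.9 and 45.5 CPM in regulatory T cell-like cells (log2 -0.02, -0.76 to 0.72) and at 62.6 and 47.5 in fibroblast-like cells (log2 0.40).

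The IFIT proteins bind foreign RNA ends. In regulatory T cell-like cells Ifit1 was at 370 CPM with DFMO and 685 with water (log2 -0.89), Ifit2 at 38.1 and 86.8 (log2 -1.19), and Ifit3 at 99.4 and 225 (log2 -1.18). Ifit3b, at 39.5 and 107 CPM, had the lowest ratio of that class (log2 -1.44, -2.11 to -0.81). In NK cell-like cells all 4 IFIT genes with 30 or more UMIs were past 1.5-fold lower, with a median of -0.95, against 5.79% of all genes. Ifit1 was at 93.0 and 142 CPM there (log2 -0.61) and Ifit3 at 39.1 and 74.4 (log2 -0.93). Ifit3b rested on 4 and 27 UMIs there (log2 -1.98, -3.96 to -0.46). Ifit3 and Ifit3b share 61.8% of the 31-base words of Ifit3 transcripts, so reads from the shared sequence cannot tell them apart. In monocyte and macrophage-like cells Ifit3 was at 421 and 427 CPM (log2 -0.02, -0.16 to 0.12), and in Ptprc-low cells at 268 and 183 (log2 0.55, 0.48 to 0.62). Ifit1 differed little in those classes, at 254 and 284 CPM (log2 -0.16, -0.35 to 0.02) and 157 and 150 (log2 0.07, -0.01 to 0.16). In CD8 T cell-like cells Ifit1 was at 214 and 310 CPM (log2 -0.53), Ifit3 at 177 and 258 (log2 -0.54) and Ifit2 at 37.4 and 68.9 (log2 -0.88). In fibroblast-like cells Ifit1 was at 269 and 307 CPM (log2 -0.19), Ifit3 at 355 and 361 (log2 -0.02) and Ifit3b at 53.1 and 73.1 (log2 -0.46).

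The 2'-5' oligoadenylate synthetase family, with its relatives Oasl1 and Oasl2, and the kinase PKR (Eif2ak2) had a median of -0.79 in regulatory T cell-like, -0.46 in CD8 T cell-like and -0.40 in NK cell-like cells. The value of -0.79 is the ratio of Oasl1 itself (-1.86 to 0.22), on 14 and 24 UMIs. The medians were -0.02 in monocyte and macrophage-like, 0.27 in fibroblast-like and 0.48 in Ptprc-low cells. Oas1a was at 85.8 and 153 CPM in regulatory T cell-like cells (log2 -0.83) and shares 68.8% of its transcript words with other genes, nearly all with Oas1g. Oasl2 was at 9.56 and 34.6 CPM in NK cell-like cells (log2 -1.86, -2.93 to -0.93). Oas2 had fewer than 30 UMIs in each of the 3 lymphocyte classes and was at 52.5 and 41.9 CPM in monocyte and macrophage-like cells (log2 0.33, -0.10 to 0.73).

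Among the nucleic acid sensors the RNA helicases Ddx58 and Ifih1 had ratios above 0 in regulatory T cell-like cells, with intervals that spanned 0. Ddx58, which encodes RIG-I, was at 66.1 and 62.4 CPM in CD8 T cell-like cells (log2 0.08, -0.23 to 0.39). It was at 68.7 and 62.7 CPM in NK cell-like cells (log2 0.13, -0.29 to 0.55) and 55.8 and 53.7 in regulatory T cell-like cells (log2 0.06, -0.61 to 0.73). Ifih1, which encodes MDA5, was at 125 and 109 CPM in regulatory T cell-like cells (log2 0.20, -0.25 to 0.66), the highest ratio there. Zbp1, the Z-nucleic acid sensor of necroptosis, was lower in all 3 lymphocyte classes, at 269 and 336 CPM in CD8 T cell-like (log2 -0.32), 148 and 198 in NK cell-like (log2 -0.42) and 302 and 450 in regulatory T cell-like cells (log2 -0.58). Zbp1 was also lower in the monocyte and macrophage-like class (390 and 486 CPM, log2 -0.32), and higher in fibroblast-like (402 and 344, log2 0.22) and Ptprc-low cells (291 and 233, log2 0.33).

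Among membrane and restriction factors all 6 genes were past 1.5-fold lower in regulatory T cell-like cells (median -0.99), against 8.03% of all genes. Bst2 was at 572 CPM with DFMO and 1300.2 with water there (log2 -1.19, -1.35 to -1.02), and 916 and 1578 in monocyte and macrophage-like cells (log2 -0.79). It was at 496 and 844 CPM in CD8 T cell-like cells (log2 -0.77), and its NK cell-like ratio was -0.88. Its difference was small in fibroblast-like (log2 -0.10) and Ptprc-low cells (2224 and 2080.4 CPM, log2 0.10). Isg20 was at 418 and 930 CPM in regulatory T cell-like cells (log2 -1.15), 280.0 and 412 in CD8 T cell-like (log2 -0.56), 198 and 260 in NK cell-like (log2 -0.39) and 148 and 226 in monocyte and macrophage-like cells (log2 -0.61). It was at 107 and 99.8 CPM in fibroblast-like and 112 and 117 in Ptprc-low cells, with intervals that spanned 0. Rsad2, the radical enzyme viperin, and its neighbour Cmpk2, a mitochondrial nucleotide kinase, lie on opposite strands of chromosome 12 (26442746 to 26456452 and 26469204 to 26479837). Rsad2 was lower in regulatory T cell-like cells (38.1 and 102 CPM, log2 -1.42, -2.10 to -0.77) and higher in monocyte and macrophage-like cells (363 and 270, log2 0.43, or 0.21 without the top cell of each library). In Ptprc-low cells Rsad2 was at 148 and 76.2 CPM (log2 0.95) and Cmpk2 at 81.2 and 40.4 (log2 1.01), the highest ratios of that class. There, 1 DFMO cell held 283 of 1461 Rsad2 UMIs, and without the top cell of each library the log2 ratios were 0.73 for Rsad2 and 0.87 for Cmpk2. Cmpk2 was at 53.7 and 39.1 CPM in fibroblast-like (log2 0.46) and 93.7 and 76.5 in monocyte and macrophage-like cells (log2 0.29, or 0.01 without those cells). Trim30a, a tripartite-motif protein, was at 96.9 and 107 CPM in CD8 T cell-like cells (log2 -0.14, -0.39 to 0.11).

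Of the remaining genes, Ifi27l2a was at 3188 CPM with DFMO and 4888 with water in CD8 T cell-like cells (log2 -0.62), and at 7704 and 12148 in regulatory T cell-like cells (log2 -0.66). It was nearly level in monocyte and macrophage-like (4058 and 4244 CPM, log2 -0.06), fibroblast-like (912 and 853, log2 0.10) and Ptprc-low cells (224 and 223, log2 0.01). In NK cell-like cells it was at 115 and 419 (log2 -1.87), where 1 cell held 54 of the 132 DFMO UMIs. At a finer clustering resolution the NK cell-like ratio of Ifi27l2a was 0.146, with 241 and 396 cells in that class, so that value depends on which cells are counted. Ifi44 was lower in the monocyte and macrophage-like class (10.3 and 21.2 CPM, log2 -1.04, -2.03 to -0.18), on 12 DFMO UMIs. It was higher in fibroblast-like cells (91.6 and 63.8 CPM, log2 0.52). Rtp4 and Xaf1 were lower in all 3 lymphocyte classes, at 198 and 273 and at 166 and 254 CPM in CD8 T cell-like cells (log2 -0.47 and -0.62). Their ratios were -0.41 and -0.44 in NK cell-like (102 and 135, and 115 and 156 CPM) and -0.81 and -0.79 in regulatory T cell-like cells (219 and 384, and 150 and 259 CPM). In monocyte and macrophage-like cells Rtp4 was at 359 and 400 CPM (log2 -0.16) and Xaf1 at 245 and 295 (log2 -0.27). In fibroblast-like cells they were at 260.0 and 251 (log2 0.05) and 335 and 330 (log2 0.02), and in Ptprc-low cells at 227 and 196 (log2 0.21) and 335 and 305 (log2 0.13).

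The rest had ratios below 0 in all 3 lymphocyte classes, though many of their intervals spanned 0. In CD8 T cell-like, NK cell-like and regulatory T cell-like cells the log2 ratios were -0.40, -0.48 and -0.75 for the GTPase Mx1 and -0.61, -1.08 and -0.54 for the RIG-I relative Dhx58. They were -0.53, -1.23 and -0.55 for Oas3 and -0.42, -0.23 and -0.79 for Oasl1. The ADP-ribosyltransferase Parp14 had -0.22, -0.41 and -0.22, and Eif2ak2 -0.46, -0.31 and -0.42. The intervals of Oasl1 and Parp14 spanned 0 in all 3 classes. So did those of Mx1 in NK cell-like cells, Dhx58 and Oas3 in regulatory T cell-like cells, and Eif2ak2 in both.

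**Figure D3:**
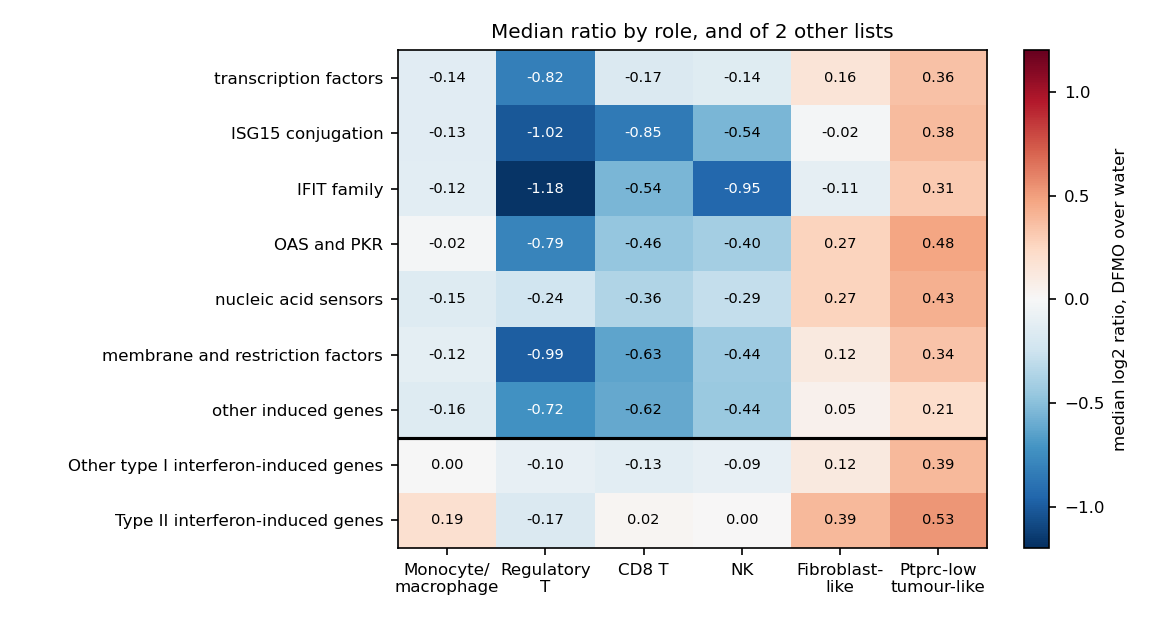
Median log2 ratio, DFMO over water, of each role group in 6 classes, with 2 other interferon lists below the line. The IFIT family is lowest in regulatory T cell-like and NK cell-like cells (-1.18 and -0.95), and each role group is above 0 in Ptprc-low cells.

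Marker genes of other cells moved with the libraries. In NK cell-like cells the 7 fibroblast markers summed to 4.35 CPM with DFMO (5 at 0) and 47.9 with water (3 at 0), which is 0.0365% and 0.369% of their level in fibroblast-like cells. The 10 monocyte and macrophage markers summed to 584 and 718 CPM there, mostly Ccr2 and Ly6c2, and Lyz2 to 0 and 34.6. In regulatory T cell-like cells the monocyte and macrophage markers summed to 270 CPM (4 at 0) and 708 (none at 0), or 0.801% and 1.98% of the monocyte and macrophage-like level. Most of that DFMO sum was Ccr2 (170 and 211 CPM) and Ly6c2 (76.2 and 74.4). Lyz2 was at 5.45 and 220 CPM there, C1qb at 8.17 and 74.4 and Cd68 at 1.36 and 41.3. In CD8 T cell-like cells the 10 monocyte and macrophage markers summed to 1929 and 2235 CPM, of which Ly6c2 gave 1892 and 2127. The 7 B cell markers went the other way, at 87.8 and 11.2 CPM in NK cell-like cells. The part of carried-over RNA in the ratios was not tested.

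Within classes the clusters were not alike. Among CD8 T cell-like clusters, the Gzmk, Ly6c2 and Cxcr3 cluster 8 had the highest sum, at 10460 CPM with DFMO and 15247 with water (log2 -0.54). The Pdcd1 and Lag3 cluster 6 had 6325 and 8583 CPM (log2 -0.44), and without Ifi27l2a 3028 and 3537 (log2 -0.22). The cycling-gene cluster 15 had 5099 and 8036 CPM. Of the genes with 30 or more UMIs, 19 of 28 were lower in cluster 6, against 49.2% of all genes. There, 5 were past 1.5-fold lower, against 5.23%. In cluster 8, 25 of 30 were lower, against 43.2% of all genes, and 6 past 1.5-fold, against 6.05%. Without cluster 6 the class had 20 genes past 1.5-fold lower, and without cluster 15 it had 7, so its count of 12 depends on both.

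By summed level, 1 of the 3 monocyte and macrophage-like clusters was lower with DFMO. The Il1b and Ms4a4c cluster 5 had 14615 CPM with DFMO and 19786 with water, and its Isg15 was at 2304 and 3907 CPM. The C1qa and Apoe macrophage cluster 10 had 13295 and 13287 CPM, and the Hp and Chil3 monocyte cluster 13 had 7540 and 6773. Without cluster 5 the log2 ratio of the class was -0.03. These clusters held 75, 61 and 64 DFMO cells. In cluster 10 single genes went both ways. Isg15 was at 1606 and 2021 CPM there, Bst2 at 1527 and 2214 and Zbp1 at 231 and 342, while Rsad2 was at 897 and 447, with 72 of 318 DFMO UMIs in 1 cell.

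Among Ptprc-low clusters the hypoxia-gene cluster 3 (Ero1l, Car9, Bnip3) had 7524 CPM with DFMO and 6216 with water (log2 0.28), and 8 of 31 genes past 1.5-fold higher against 4.76% of all genes. The dividing cluster 2 had 6181 and 5645 CPM (log2 0.13), with 5 of 31 past 1.5-fold higher against 5.74%. Cluster 11 had 5813 and 5455, with 4 of 31 past 1.5-fold higher against 7.86%, and cluster 14 had 4984 and 5223. Without cluster 3 the log2 ratio of the class was 0.10.

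**Figure D4:**
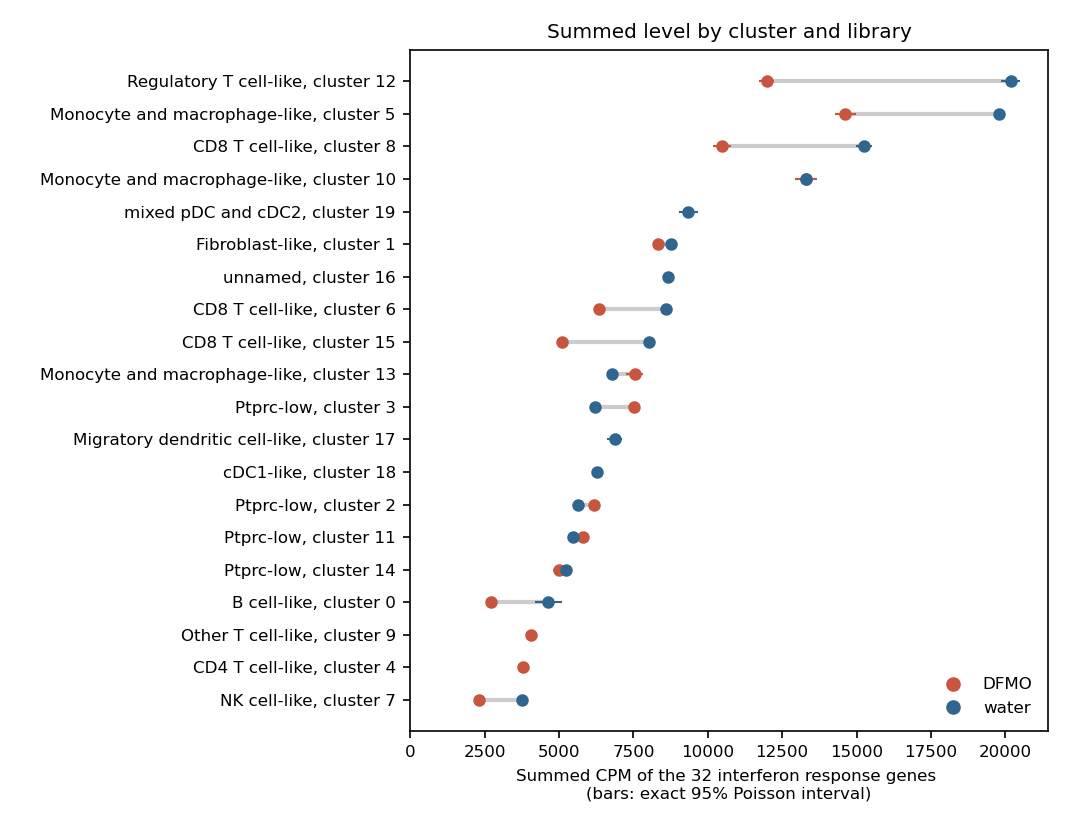
Summed CPM of the 32 genes in each cluster with 50 or more cells of a library; dots are libraries and bars are exact 95% Poisson intervals, which cover counting error only. Regulatory T cell-like cluster 12 spans 11986 (DFMO) to 20180 (water), and macrophage cluster 10 shows both libraries at one value.

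Smaller or library-specific classes were described without ratios. The DFMO library's B cell-like cells had 2699 CPM, its CD4 T cell-like cells 3777 and its other T cell-like cells 4061, all below its regulatory T cell-like 11986. The 57 water B cell-like cells had 4618 CPM (4177 to 5092). Isg15 was at 60.9 CPM in DFMO B cell-like cells and at 273 in DFMO CD4 T cell-like cells. Irf9 was at 97.9 and 137 CPM in the same cells, above its 76.5 in DFMO CD8 T cell-like cells. In water, migratory dendritic cell-like cells had 6867 CPM, type 1 conventional dendritic cell-like cells 6276, the mixed plasmacytoid and type 2 dendritic cluster 9342, and an unnamed cluster with Ptprc at 59.96 CPM had 8658.

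Cells were then thinned to 1000 UMIs each, leaving out shallower ones, so that depth was alike. Without Ifi27l2a, the median regulatory T cell-like cell held 3 UMIs of the genes with DFMO (194 cells, 1 left out) and 7 with water (196 cells, 10 left out). The 90th percentile was 11 and 22.5 UMIs, and 11.3% and 4.08% of cells held none. The median NK cell-like cell held 1 and 2 UMIs, with 90th percentiles of 5 and 10. The median CD8 T cell-like cell held 2 and 4, and the median monocyte and macrophage-like cell 5 and 7. Fibroblast-like cells were alike at 7 and 7, as were Ptprc-low cells at 5 and 5. The genes were unevenly spread: the top 10% of cells held 37.9% and 32.4% of the UMIs in regulatory T cell-like cells, and 43.7% and 41.6% in NK cell-like cells.

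**Figure D5:**
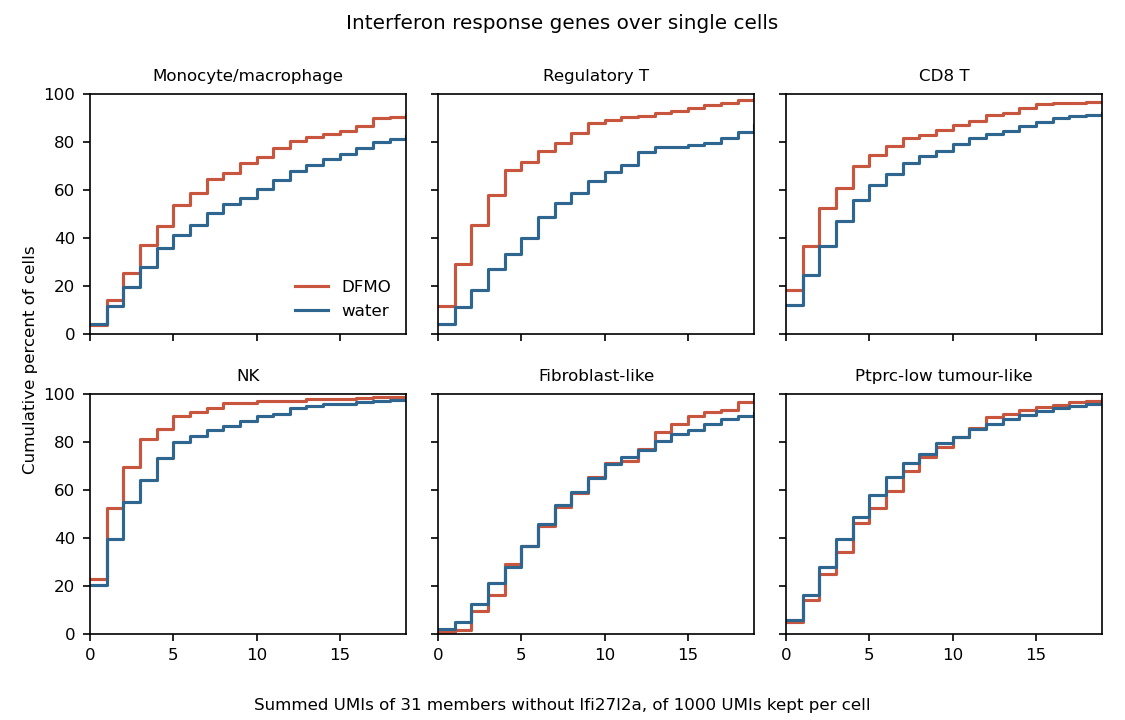
Cumulative percent of cells against summed UMIs of 31 genes (Ifi27l2a left out) in cells thinned to 1000 UMIs, for 6 classes and both libraries. The DFMO curve lies to the left of the water curve over most of its range in the 4 leukocyte classes, with medians of 3 and 7 in regulatory T cell-like cells, and the curves nearly coincide in fibroblast-like cells.

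The share of cells with an Isg15 UMI at that depth was 15.2% with DFMO and 28.9% with water in NK cell-like cells (exact 95% intervals 10.6 to 20.9 and 24.3 to 33.9), from 44.1% and 58.1% before thinning at median depths of 4382 and 4386 UMIs. In Ptprc-low cells it was 53.9% and 54.5%. No class is known to lack Isg15. The lowest share before thinning in the DFMO library was 8.51%, in B cell-like cells, which had a median of 1766 UMIs.

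Other interferon-induced genes, on lists chosen with these data known, had lymphocyte medians nearer 0. A list of 79 other type I interferon-induced genes had medians of -0.13 in CD8 T cell-like (50 of 66 lower, 2 past 1.5-fold against 3.68% of all genes), -0.09 in NK cell-like (42 of 62 lower, 7 against 5.79%) and -0.10 in regulatory T cell-like cells (39 of 58 lower, 12 against 8.03%). Of all genes, 44.1%, 45.7% and 41.6% were lower in those classes. Among the 79, Ifitm3, which blocks viral fusion, was at 87.1 and 508 CPM in regulatory T cell-like cells (log2 -2.54). In Ptprc-low cells 67 of 74 genes of that list were higher (median 0.39), against 58.4% of all genes. Past 1.5-fold higher were 12, against 4.76% of all genes. A list of 39 type II interferon-induced genes had medians of 0.02 in CD8 T cell-like, 0.00 in NK cell-like and -0.17 in regulatory T cell-like cells. Its medians were above 0 in fibroblast-like ( 0.39, 12 of 35 past 1.5-fold higher against 5.83%) and Ptprc-low cells (0.53, 17 of 37 against 4.76%). Gbp10, a guanylate-binding protein, was at 42.6 and 16.3 CPM in fibroblast-like cells (log2 1.38), and Ido1, which degrades tryptophan, at 10.9 and 3.54 in Ptprc-low cells (log2 1.62).

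The ligands were sparse. Over all kept cells Ifnb1 had 47 UMIs with DFMO and 627 with water (2.01 and 10.7 CPM), of which 18 and 542 were in monocyte and macrophage-like cells. There they lay in 9 of 200 and 83 of 1290 cells, and 5 cells held 77.8% of the DFMO UMIs. Ifna4 had 30 and 194 UMIs in all (1.28 and 3.32 CPM). Ifna2 went the other way, with 149 and 260 UMIs (6.37 and 4.45 CPM, log2 0.52). Its ratio was 0.91 in CD8 T cell-like cells, where 1 DFMO cell held 45 of 51 UMIs, 0.43 in NK cell-like and 0.95 in regulatory T cell-like cells. The monocyte and macrophage-like ratio was -0.80 (-1.91 to 0.15).

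Across 20 class-by-library points the genes whose level ran most like the 32 were, by Pearson correlation, Rnase4 (0.87), Ctsb (0.86), Ang (0.84), Ptgs1 (0.84), Mcub (0.84), Cxcl10 (0.81), Gm14005 (0.80), Ggh (0.80), Acp2 (0.79) and Lrpap1 (0.79). The points share 2 libraries and their depth, so these values are a description. Among the 32 themselves, Oas3 (0.89) and Oas1a (0.88) ran most like the mean of the others, while Irf9 (-0.26) and Ddx58 (0.08) did not follow it.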

How the data were processed

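Per the labels, droplet libraries were made with a 5' single-cell kit, and per the submitters' processing notes Cell Ranger 3.02, Scanpy 1.4.4 and mm10 were used. The authors deposited raw UMI counts per gene (17775) and cell (10720) and a cell table naming the group; "Control" there was read as water. The counts were used as deposited. Cells under 200 genes and Scrublet-called doublets (51 and 97) were removed, leaving 4421 and 6150 cells with 23383042 and 58368594 UMIs. Cells were clustered (scanpy 1.11.5, 2000 variable genes without 150 interferon-induced genes, 30 components, Leiden resolution 1) and named from marker lists. Counts were summed by class and library and divided by class totals (CPM). Intervals are exact Poisson or conditional binomial at 95%, checked on simulated data. "Called" means past 1.5-fold with 30 or more UMIs.

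The genes and lists were chosen with earlier results of these data known. Values in each of the 6 classes are given for the 10 genes with the highest mean CPM over class-by-library sums, and in each class the 3 highest and 3 lowest ratios are named; other genes were named after their values were seen, for their role. Of the other lists, only some of the genes at their extremes are named. Likeness was computed on log2(CPM + 10) over genes with 100 or more UMIs. Alternatives included edgeR 4.0.16 TMM factors, other resolutions, weights and thinning. Gene positions are from GENCODE M21.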

Additional observations from a re-analysis of the deposited data

Results flagged for a closer look

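For 4 genes the ratio of DFMO over water was past 1.5-fold in opposite directions in different classes, with the counting interval off 0. The difference between classes was not tested, since each group is 1 library. Rsad2 had log2 ratios of -0.71 in CD8 T cell-like, -1.14 in NK cell-like and -1.42 in regulatory T cell-like cells, against 0.95 in Ptprc-low cells. Cmpk2 had -0.71 in CD8 T cell-like and -0.82 in regulatory T cell-like cells, against 1.01 in Ptprc-low cells. Ifit3b had -0.67 in CD8 T cell-like, -1.98 in NK cell-like and -1.44 in regulatory T cell-like cells, against 0.77 in Ptprc-low cells. Ifi44 had -1.04 in monocyte and macrophage-like and -0.73 in NK cell-like cells, against 0.76 in Ptprc-low cells. Its monocyte and macrophage-like ratio rested on 12 DFMO UMIs (-2.03 to -0.18) and its NK cell-like ratio on 24 (-1.47 to -0.04).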

How the results depend on the processing

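No paired analysis was possible because a single library stands for each group. Depth limits genes under 30 UMIs, and no setting supplies replicate error. Weighting clusters alike, leaving out shared barcodes or Ifi27l2a, and recounting genes past 1.5-fold were chosen after seeing the data. Sums kept their sign in all 6 classes under every alternative run, and so did medians, except that of the monocyte and macrophage-like class, which kept it in 15 of 16 and ranged from -0.32 to 0.04. The cause of the shifts below was not tested.

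In all kept cells the log2 ratio of the sum (-0.326) was -0.376 with TMM, -1.03 with cells weighted alike, -1.01 thinned to 1000 UMIs, -0.256 without Bst2 and -0.423 without Ifi27l2a. The median became -1.05 and -1.03, and the genes past 1.5-fold lower 27 and 26 instead of 2, with cells weighted alike and thinned. The share of all genes was not computed for those 2 settings. In CD8 T cell-like cells the sum (-0.605) was -0.507 and -0.529 at resolutions 0.5 and 2.0, -0.66 with TMM, -0.633 with cells alike and -0.547 with clusters alike. It was -0.711, -0.528 and -0.552 without clusters 6, 8 and 15. Its 12 genes past 1.5-fold lower became 4 at resolution 0.5, 20 without cluster 6 and 7 without cluster 15.

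In NK cell-like cells the sum (-0.711) was -0.584 at resolution 2.0 and -0.615 without Ifi27l2a, and the 12 genes became 20 at resolution 2.0 and 7 among genes with at least 100 UMIs. Log2 ratio of Ifi27l2a, NK cell-like, reversed from -1.87 to 0.146 at resolution 2.0. In regulatory T cell-like cells the sum (-0.752) was -0.961 and -0.464 at resolutions 0.5 and 2.0, -0.854 with TMM, -0.993 with cells alike, -0.982 thinned and -0.907 without Ifi27l2a. Its 20 genes became 10 at resolution 2.0, where the class held 77 DFMO cells, under the 100 set for ratios.

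In the monocyte and macrophage-like class the sum (-0.244) was -0.271 with 500 genes per cell, -0.425 at resolution 2.0, -0.298 with TMM, -0.397 with cells alike and -0.318 thinned. It was -0.329 without Ifi27l2a, -0.028 and -0.365 without clusters 5 and 10, and -0.094 with clusters alike. Its 4 genes became 7 at resolution 2.0, 8 thinned, and 2 both without cluster 5 and with clusters alike. In fibroblast-like cells the sum (-0.077) was -0.051 with doublets kept, -0.048 with 500 genes, -0.145 and -0.05 at resolutions 0.5 and 2.0, -0.101 with TMM and -0.106 with cells alike; 0 genes past 1.5-fold lower became 4 thinned.

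In Ptprc-low cells the sum (0.183) was 0.158 with doublets kept, 0.163 with 500 genes, 0.2 and 0.161 at resolutions 0.5 and 2.0, 0.121 with TMM, 0.045 with cells alike and 0.011 thinned. It was 0.229 without Bst2, 0.205, 0.1 and 0.202 without clusters 2, 3 and 11, and 0.108 with clusters alike. The median (0.376) was 0.168 with cells alike, 0.257 thinned and 0.224 with clusters alike, where 1 gene instead of 0 was past 1.5-fold lower.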
